A study of Mus musculus with 6 samples.

Results

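The genes described here act at the start of steroid synthesis: Cyp11a1, Star, Stard3, Fdx1, Fdxr, Tspo, Hsd3b1 and Por, 8 genes in all. They were chosen by pathway and by the difference between these groups, above all that of Cyp11a1, which was already known, and every probe set whose annotation names 1 of them and no other gene was taken. That gave 12 of the 45037 probe sets tested, for 6 of the 8 genes: 3 each for Cyp11a1, Star and Tspo and 1 each for Stard3, Fdx1 and Hsd3b1. The annotation used here paired no probe set with Fdxr or Por, so their expression was not analysed here. The cells were sorted from mouse bone marrow. All carried MLL-AF9, a leukaemia fusion gene, and all had received an EGFP control vector, in culture with mIL3, hIL6 and mSCF. The MLL-AF9/Mn1wt group had Mn1 intact (n = 3) and the MLL-AF9/Mn1null group had it deleted by CRISPR-Cas9 (n = 3). The labels do not say whether a group was 1 clone or a pool, what the animals' age and strain were, or whether replicates were separate cultures. The spread between replicates may therefore be technical.

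Steroid hormones are made from cholesterol. The limiting step is the passage of cholesterol to the inner mitochondrial membrane, for which STAR is required in adrenal and gonad. STARD3 is a cholesterol carrier of late endosomes, and TSPO is a cholesterol-binding protein of the outer mitochondrial membrane. At the inner membrane CYP11A1 cleaves the cholesterol side chain to give pregnenolone, with electrons that pass from NADPH through ferredoxin reductase (FDXR) to ferredoxin (FDX1). HSD3B1 then converts pregnenolone to progesterone, and the microsomal P450 enzymes of later steps draw on a different donor, P450 oxidoreductase (POR). These genes are known mainly from adrenal, gonad and placenta, and Cyp11a1 has also been described in immune cells.

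The values are log2 expression values per probe set, so a difference of 1 is a doubling of signal. Array medians lay between 5.16 and 5.22, and arrays correlated at 0.997 to 0.998 within a group and at 0.981 to 0.983 between groups. A mean under 4.07, the 30th percentile of all probe set means, is called low here. The blood cell markers fixed for a check of the tissue were measured for 12 of 12 genes and none was low. By limma's test (adjusted p under 0.05) 16.7% of all 18193 genes rose in Mn1null and 18.0% fell, at 1 probe set per gene, the brightest. Of these 12 blood cell markers 6 rose and 6 did not pass. The leukocyte gene Ptprc (CD45) did not pass, at 11.54 in Mn1wt and 11.57 in Mn1null. Cd48, a leukocyte surface gene, rose by 2.13, the integrin genes Itgb2 and Itgam by 1.53 and 0.84, and Mpo, a primary granule enzyme, from 13.84 to 14.11. Mn1 was read by 1 probe set, at 4.49, 4.12 and 4.44 in Mn1wt and 4.21, 4.12 and 4.07 in Mn1null. That difference of -0.22 missed the threshold (limma adjusted p = 0.182), and the place of the probe set relative to the deletion is unknown, so it checks nothing. Bacterial transcripts that serve as labelling controls differed between the same groups, by -0.85 for their 8 5′ probe sets, -0.49 for the middle ones and -0.30 for the 3′ ones; the part of this in the results below was not tested.

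Among all 45037 probe sets, 12528 (27.8%) passed in limma (adjusted p under 0.05), 13.2% higher and 14.7% lower in Mn1null. The 3 Mn1null values lay wholly above or wholly below the 3 Mn1wt values for 41.1% of all probe sets. Of the 12 probe sets of the steroid genes, 7 lay wholly above, against 19.7% of all probe sets, and 1 wholly below, against 21.4%. Because the genes were chosen with this comparison known, their differences are given as a description without a test, and nothing is read from these counts.

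Cyp11a1 had by far the largest difference of the group, and its upstream sequence is shown for that reason. RefSeq (build GRCm38.p6) gives this gene a pair of starts on the plus strand. The first line holds the 250 bases before the upstream start, chr9:57997774-57998023, and the next one the 250 bases before the downstream start, chr9:58014702-58014951. The third line, for contrast, holds the 250 bases before the start of Fdx1, chr9:51963603-51963852 on the minus strand, the electron donor gene that was lower. Capitals mark GATA motifs on either strand, which are GATAA or GATAG after an A or a T, and AGGTCA on either strand, the core of the motif of the steroidogenic NR5A receptors.
Cyp11a1, upstream start: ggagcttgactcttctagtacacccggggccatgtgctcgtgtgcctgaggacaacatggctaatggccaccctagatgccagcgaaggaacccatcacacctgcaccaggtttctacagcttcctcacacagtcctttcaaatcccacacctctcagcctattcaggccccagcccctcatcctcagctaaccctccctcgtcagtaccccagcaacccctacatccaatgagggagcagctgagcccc
Cyp11a1, downstream start: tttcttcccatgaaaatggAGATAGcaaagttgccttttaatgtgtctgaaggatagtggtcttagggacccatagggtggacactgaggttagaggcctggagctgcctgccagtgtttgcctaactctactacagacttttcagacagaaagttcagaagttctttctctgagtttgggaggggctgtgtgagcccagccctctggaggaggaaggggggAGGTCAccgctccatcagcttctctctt
Fdx1: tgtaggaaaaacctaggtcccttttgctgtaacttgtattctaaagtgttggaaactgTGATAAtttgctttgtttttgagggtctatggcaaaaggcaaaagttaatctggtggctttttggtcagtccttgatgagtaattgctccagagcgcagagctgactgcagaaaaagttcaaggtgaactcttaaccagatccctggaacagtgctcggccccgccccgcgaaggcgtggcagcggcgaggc

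The window before the downstream Cyp11a1 start held 1 GATA match, 231 to 226 bases before the start, and 1 AGGTCA, 28 to 23 bases before it; the window before the upstream start held 0 of either. The Fdx1 window held 1 GATA match, 192 to 187 bases before the start. Of 32851 windows of the same length in the RefSeq table, 26.5% held a GATA motif, 14.0% an AGGTCA and 4.02% both. A window was found for 6 of the 8 genes. Among the others, that of Fdxr held 1 GATA match and that of Hsd3b1 held 2, while those of Stard3 and Por held 0 of either motif. No motif of one kind overlapped the other, and a match of letters is not a bound site.

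The probe set 1448804_at read Cyp11a1, the side chain cleavage enzyme, at 7.57, 7.31 and 7.60 in the 3 Mn1wt arrays and at 12.19, 12.17 and 12.18 in the 3 Mn1null arrays. All Mn1null arrays lay far above all Mn1wt arrays, and they differed from each other by much less than the Mn1wt arrays did (SD 0.010 against 0.16, n = 3 each). The difference was 4.69 ± 0.086 (log2, SE), or 25.8-fold, which ranked 17 of 45037 among differences towards Mn1null. In the Mn1wt group, replicate 2 was the lowest of the 3, and without it the difference was 4.60.

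The other probe sets of Cyp11a1 did not give this size. On 1439947_at the values were 4.05, 4.37 and 4.03 in Mn1wt and 5.04, 5.05 and 4.87 in Mn1null, without overlap, a difference of 0.84 ± 0.106 (SE) or 1.79-fold. Signal was faint there, with the Mn1wt mean of 4.15 just above the low level. RMA compresses faint signals, and the part of this in the smaller difference was not tested. On 1457604_x_at, an identifier type that marks probes shared with other sequences, the values were 3.13, 2.93 and 3.05 in Mn1wt and 3.28, 3.26 and 3.00 in Mn1null. These were low in both groups and overlapped, with a difference of 0.14 ± 0.095 (SE). The mean of the 3 probe sets differed by 1.89, so the size given for Cyp11a1 rests on 1448804_at, while the means of all 3 lay higher in Mn1null. The part of the transcript that each probe set reads is not known here.

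**Figure D1:**
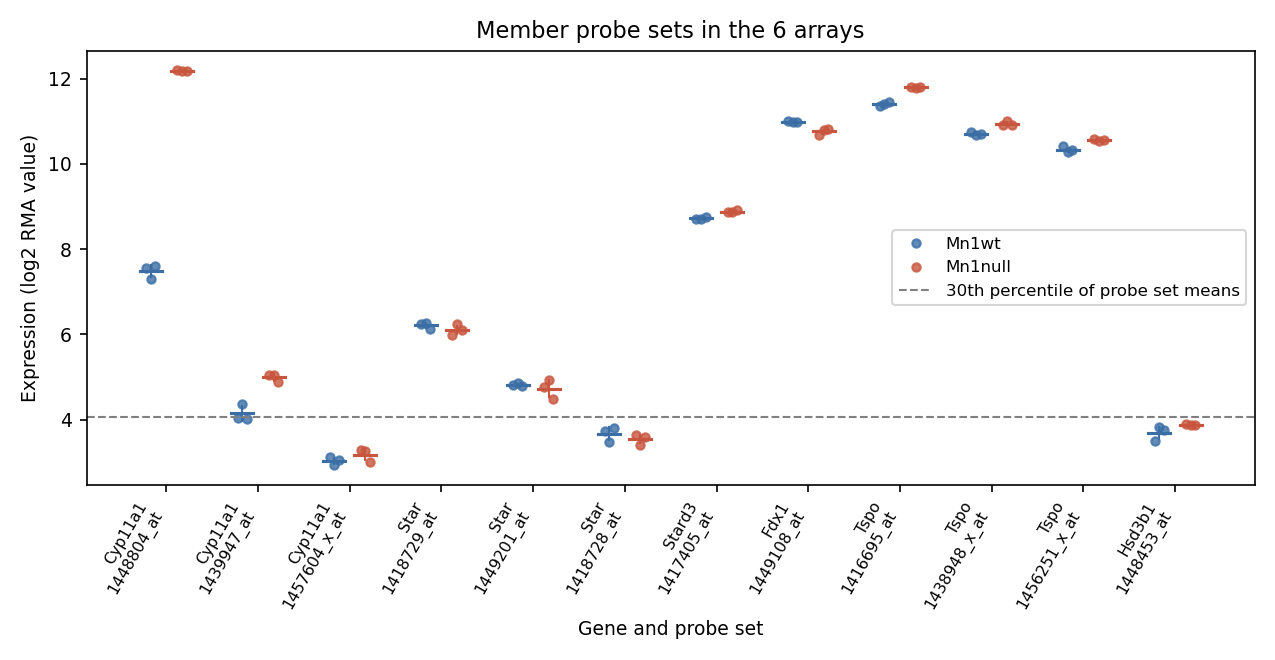
Expression values (log2 RMA values, vertical axis) of the 12 probe sets (horizontal axis) in the 3 Mn1wt arrays (blue) and 3 Mn1null arrays (red); each point is an array, horizontal bars are group means and vertical lines the SD. Cyp11a1 on 1448804_at goes from 7.49 to 12.18, while every other probe set shown differs by less than 1, and the dashed line marks the low level of 4.07.

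Star, whose product carries cholesterol into mitochondria, was lower in the mean on each of its 3 probe sets, by little, and its groups overlapped on every one. On 1418729_at, the brightest, the values were 6.24, 6.27 and 6.12 in Mn1wt and 5.99, 6.23 and 6.10 in Mn1null, a difference of -0.10 ± 0.081 (SE), which was -0.04 without Mn1null replicate 1 and -0.16 without Mn1null replicate 2. On 1449201_at they were 4.82, 4.86 and 4.79 in Mn1wt and 4.77, 4.93 and 4.48 in Mn1null, where replicate 3 lay apart from the other two. That difference was -0.09 ± 0.112 (SE), and it turned to 0.03 without Mn1null replicate 3 and was -0.20 without Mn1null replicate 2. The third probe set, 1418728_at, was low in both groups, at 3.67 ± 0.18 and 3.55 ± 0.12 (SD, n = 3 each). Each of these differences was smaller than the SD of the more variable group, though on 1418729_at and 1449201_at it was larger than the SD of the Mn1wt group.

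Tspo was high in both groups and higher in Mn1null on all 3 of its probe sets. On 1416695_at the values were 11.37, 11.41 and 11.44 in Mn1wt and 11.80, 11.77 and 11.80 in Mn1null, a difference of 0.38 ± 0.057 (SE) or 1.30-fold. The groups did not overlap, and the gap was wider than either group's range. On 1438948_x_at the means were 10.71 ± 0.044 and 10.94 ± 0.054, and on 1456251_x_at they were 10.33 ± 0.070 and 10.56 ± 0.029 (SD, n = 3 each), also without overlap. Those differences were 0.24 and 0.23, and both identifiers are of the type with probes shared between sequences. Stard3, the endosomal cholesterol carrier, stood at 8.70, 8.72 and 8.74 in Mn1wt and 8.88, 8.86 and 8.91 in Mn1null. Its groups did not overlap, and its difference was 0.16 ± 0.056 (SE) or 1.12-fold.

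Fdx1, the ferredoxin that hands electrons to CYP11A1, was the 1 gene of the group that lay wholly lower in Mn1null. It read 11.00, 10.98 and 10.97 in Mn1wt and 10.69, 10.79 and 10.81 in Mn1null. The difference was -0.22 ± 0.061 (SE), a level 1.17-fold higher in Mn1wt, and it was between -0.25 and -0.19 when any 1 array was left out. Signal was high in both groups.

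Hsd3b1, the enzyme after CYP11A1, was low in both groups. It read 3.50, 3.82 and 3.75 in Mn1wt and 3.90, 3.86 and 3.88 in Mn1null, values without overlap whose means differed by 0.19 ± 0.090 (SE), and by 0.10 without Mn1wt replicate 1. All 6 values lay under the low level of 4.07, so this probe set gives no sign of a clear signal in either group.

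**Figure D2:**
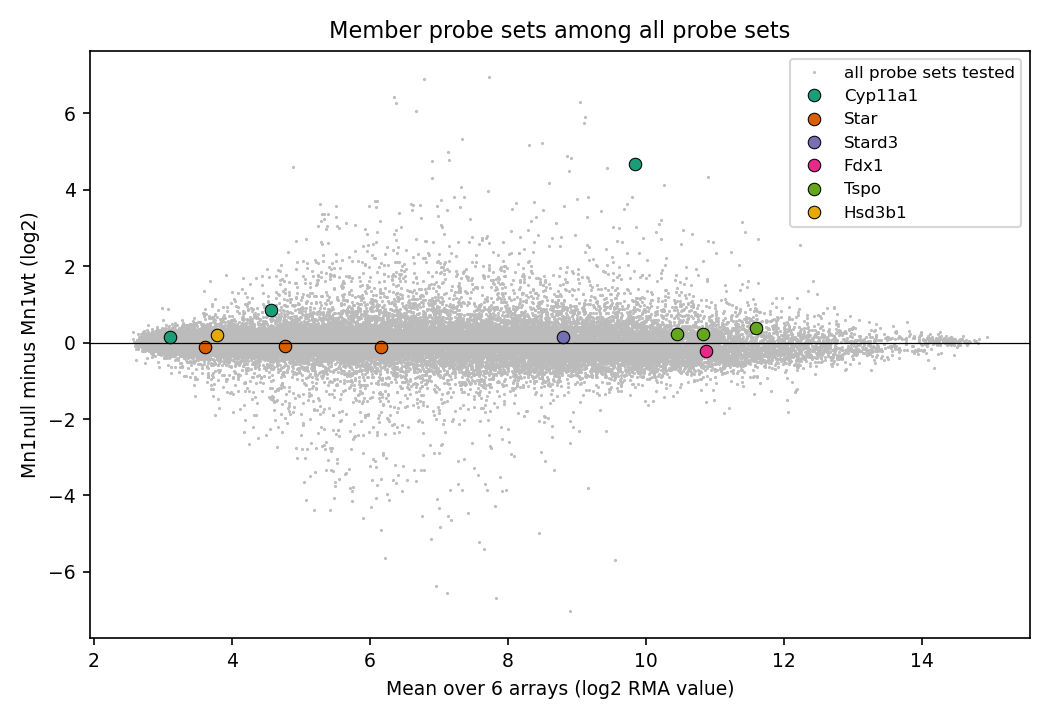
Difference of group means (Mn1null minus Mn1wt, log2, vertical axis) against the mean over the 6 arrays (log2 RMA value, horizontal axis) for all 45037 probe sets (grey) and the 12 probe sets of the steroid genes (coloured by gene). Cyp11a1 on 1448804_at lies at 4.69, and the other 11 run from -0.22 to 0.84.

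The 5 genes whose values over the 6 arrays lay closest to those of Cyp11a1, by Euclidean distance after centring each gene on its mean, were Hdc (0.17), Gdf10 (0.30), Akr1c12 (0.31), Cdkn2a (0.31) and Scin (0.47). Hdc encodes the enzyme that makes histamine, and it went from 7.15 ± 0.18 in Mn1wt to 11.72 ± 0.013 in Mn1null (SD, n = 3 each). It was also lowest in Mn1wt replicate 2, at 6.95. Akr1c12, an aldo-keto reductase, had means of 6.50 and 11.33, and Scin, an actin-severing protein, 8.73 and 13.06. Over 6 arrays in 2 groups this likeness mostly reflects the size of the group difference, and it is a description of these arrays.

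**Figure D3:**
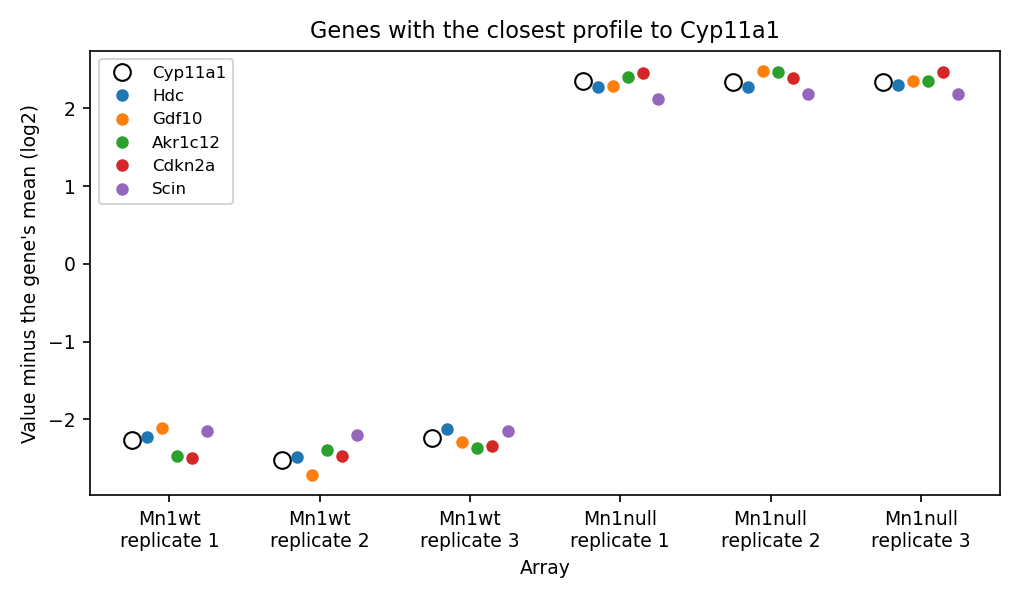
Values of Cyp11a1 (open circles) and the 5 genes closest to it (filled points) in each of the 6 arrays (horizontal axis), each gene centred on its own mean (log2, vertical axis). In all 3 Mn1wt arrays the 6 genes lie below their means and in all 3 Mn1null arrays above, with group differences between 4.33 and 4.88.

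Markers of mast cells and basophils moved with Cyp11a1, and those of steroid-making gland cells did not pass the test. Of 10 measured gland markers (of 14 listed) 0 passed in limma in either direction, and 1, Cyp17a1, had an unadjusted p under 0.05 (0.046). Their summed signal ran from 366 to 395 in Mn1wt and from 374 to 410 in Mn1null (linear scale), and 4 of them (Cyp11b1, Mc2r, Inha, Hsd17b3) were low in both groups. Nr5a1, the master regulator of steroid glands, read 5.83 in Mn1wt and 5.76 in Mn1null. Of 13 mast cell and basophil markers 9 rose (69.2%, against 16.7% of all genes) and 4 missed the threshold, the median difference was 1.27, and their summed signal ran from 4110 to 4271 in Mn1wt and from 17991 to 18559 in Mn1null. Cpa3, a mast cell carboxypeptidase, went from 8.19 to 12.32 and the IgE receptor subunit gene Ms4a2 from 7.18 to 9.55. The mast cell proteases Cma1, Tpsb2 and Tpsab1 did not pass. They read 4.37, 5.07 and 4.34 in Mn1wt and 4.22, 4.98 and 4.41 in Mn1null. The marker Mitf, brighter than these, did not pass either, at 7.31 in Mn1wt and 7.27 in Mn1null. Mcpt4 passed but was low in both groups. The part of this in the Cyp11a1 difference was not tested, and in bulk RNA more cells of a type and more RNA per cell cannot be told apart. Hdc and Gata2 belong to this list and are also named elsewhere in the text. The list was chosen with earlier results of these data known, so its share is a description.

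Of 12 T and NK cell markers 2, Cd28 and Il7r, fell (16.7%, against 18.0% of all genes) and 10 missed the threshold (median 0.01). Cd28 fell far, from 7.64 in Mn1wt to 3.86 in Mn1null, and Il7r from 4.35 to 3.99. The summed signal of these 12 markers ran from 941 to 1020 in Mn1wt and from 830 to 904 in Mn1null. Cd3g, Cd247 and Cd8b1 were low in both groups. Of 13 stroma and endothelium markers 2 rose (15.4%) and 1 fell (7.69%), neither share above that of all genes (median -0.05), with Col3a1, Pdgfra and Lum low in both. Pecam1, also found on blood cells, rose from 9.06 to 10.84 and Pdgfrb from 5.62 to 7.38. Dcn fell from 4.42 to 4.15, near the low level. The summed signal of the 13 markers ran from 879 to 958 in Mn1wt and from 2234 to 2334 in Mn1null. A linear sum mostly follows the brightest genes, and Pecam1 was the brightest here in both groups. The sum therefore does not describe the list, whose median difference was -0.05. Of 12 monocyte and macrophage markers 2, Fcgr1 and Adgre1, rose (16.7%, the share of all genes) and 8 fell (66.7%, against 18.0%; median -1.64), and the summed signal ran from 13271 to 13835 in Mn1wt and from 3088 to 3204 in Mn1null. The part of these lists in the results was not tested either.

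**Figure D4:**
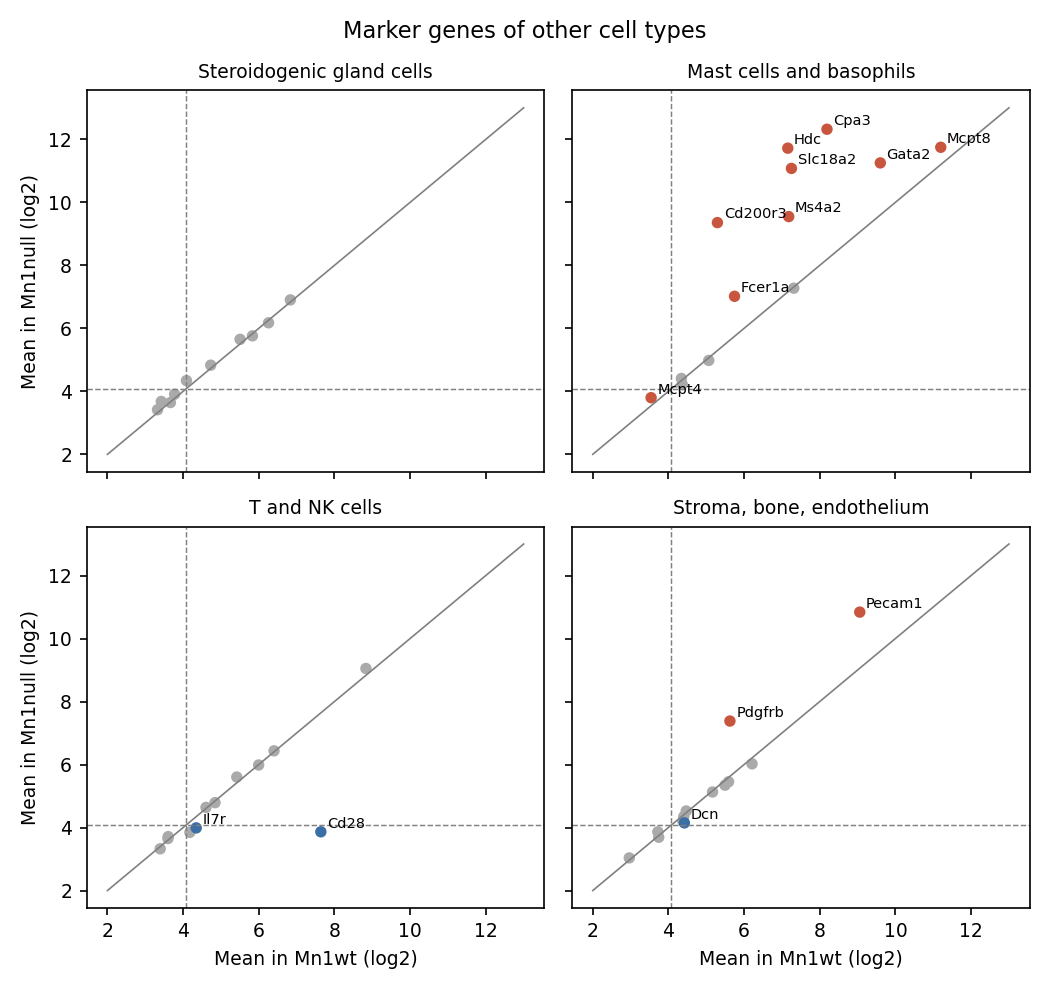
Mean in Mn1null (vertical axis) against mean in Mn1wt (horizontal axis), both log2 RMA values, for marker genes of 4 cell types; each point is a gene, red rose, blue fell and grey did not pass, the solid line is equality and dashed lines mark the low level of 4.07. The 10 gland markers lie along the line, and 9 of 13 mast cell and basophil markers lie above it in red.

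The wider pathway was followed in 6 lists, again with the brightest probe set of each gene. Against the lists stand the 16.7% of all genes that rose and the 18.0% that fell, with a median difference of 1.33e-04. All adjusted p-values below are limma's, over all probe sets. Among later enzymes of steroid synthesis and conversion, 24 of 30 were measured; 6 rose (25.0%), 1 fell and 17 missed the threshold, and the median difference was 0.09. Hsd3b7, whose product acts in bile acid synthesis rather than on hormones, rose from 9.84 ± 0.056 to 11.17 ± 0.067 (SD, n = 3 each), a 2.51-fold difference (limma adjusted p = 7.85e-06). Hsd17b1, which reduces estrone to estradiol, rose by 0.69 ± 0.065 (SE; adjusted p = 1.92e-04). Hsd17b10, a mitochondrial dehydrogenase, fell by 0.50 ± 0.068 (adjusted p = 0.00118). The other genes of this list that rose were Akr1c18 (0.77), Sult2b1 (0.65), H6pd (0.62) and Hsd11b1 (0.58). The P450 genes Cyp17a1, Cyp21a1, Cyp11b1 and Cyp11b2 and the dehydrogenase genes Hsd3b2 and Hsd3b3 did not pass. Cyp17a1 read 4.09 and 4.34, Cyp21a1 6.26 and 6.18, Cyp11b1 3.66 and 3.64, and Hsd3b2 3.20 and 3.20 in Mn1wt and Mn1null.

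Among genes for delivery, storage and release of cholesterol, 25 of 28 were measured; 11 rose (44.0%), 4 fell (16.0%) and 10 missed the threshold, and the median difference was 0.19. Abcg1, a cholesterol exporter, rose from 6.75 ± 0.10 to 8.71 ± 0.025 (SD, n = 3 each; 3.89-fold, limma adjusted p = 1.74e-06). Nceh1, a cholesteryl ester hydrolase, rose by 1.43 ± 0.085 (SE; adjusted p = 2.06e-05) and did so on each of its 3 probe sets. The lipoprotein receptor gene Scarb1, a route by which gland cells take up cholesterol esters, fell by 0.87 ± 0.085 (adjusted p = 2.33e-04), and Stard5, a cytosolic START domain protein, fell by 0.61 ± 0.065 (adjusted p = 3.76e-04). Stard5 fell on 3 of its 4 probe sets, and the fourth, which was low, did not pass (0.27). Stard4, counted among the genes that rose (0.58), passed in the opposite direction on its other 2 probe sets. Members of this list that bind or neighbour TSPO and STAR at the mitochondrion moved both ways: Dbi, a TSPO ligand, rose by 0.21, while the channel gene Vdac2 fell by 0.30 and Atad3a by 0.48, and Vdac1 did not pass (-0.05).

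Among other mitochondrial P450 enzymes and genes listed with them as mitochondrial ferredoxin partners, 12 of 14 were measured. Of these 12, 4 rose (33.3%), 2 fell (16.7%) and 6 missed the threshold, and the median difference was 0.05. Hscb, a co-chaperone of iron-sulfur cluster transfer, rose by 0.79 ± 0.065 (SE; limma adjusted p = 9.64e-05) and Isca2, a cluster assembly factor, by 0.51 ± 0.066 (adjusted p = 9.31e-04). Lias, the lipoic acid synthase, fell by 0.33 ± 0.069 (adjusted p = 0.00901) and also on a second probe set, while the third, 1431935_at, was low and did not pass (0.04, adjusted p = 0.708). The mean of its probe sets fell by 0.21. Cyp27a1, a mitochondrial sterol hydroxylase that also takes electrons from FDX1, read 5.11 ± 0.21 and 4.71 ± 0.068 and fell by 0.40 (adjusted p = 0.0307), or by 0.26 as the mean of its probe sets. That call was lost without Mn1wt replicate 1 (adjusted p = 0.0977) or 2 (0.0962) and without Mn1null replicate 1 (0.0912), 2 (0.0551) or 3 (0.0846), also from limma.

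Among microsomal P450 enzymes, other enzymes that draw on POR and cytochrome b5 partners, 23 of 23 were measured; 11 rose (47.8%), 2 fell (8.70%) and 10 missed the threshold, and the median difference was 0.16. Tbxas1, thromboxane synthase, is counted here as a microsomal P450 although its reaction needs no electron donor, and it rose by 0.96 ± 0.067 (SE; limma adjusted p = 4.60e-05). Cyp4f18, a fatty acid hydroxylase, rose from 4.52 ± 0.087 to 7.38 ± 0.16 (SD, n = 3 each; adjusted p = 1.14e-06), though its second probe set, 1433389_at, read -0.22 and did not pass (adjusted p = 0.253). The fall of Hmox2, a haem oxygenase, was 0.32 ± 0.056 (adjusted p = 0.00433) and that of Cyb5r1, a cytochrome b5 reductase, 0.32 ± 0.056 (adjusted p = 0.00393).

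Among transcription regulators known for steroidogenic genes, 29 of 31 were measured; 5 rose (17.2%), 6 fell (20.7%) and 18 missed the threshold, and the median difference was -0.01; these shares are near those of all genes. Gata1 rose from 7.33 ± 0.14 to 9.09 ± 0.034 (SD, n = 3 each; limma adjusted p = 5.72e-06) and Gata2 from 9.60 ± 0.035 to 11.25 ± 0.081 (adjusted p = 2.62e-06), both blood cell members of the family that binds the GATA motif. Gata4 and Gata6, the members known in steroid glands, did not pass. They read 5.26 and 5.05 in Mn1wt and 5.26 and 5.05 in Mn1null. Crem (1.75), Zfpm1 (1.42) and Cebpa (0.93) also rose. The part of any of these regulators in the Cyp11a1 difference was not tested. The AP-1 genes Jun and Fos fell by 1.35 ± 0.150 (SE; adjusted p = 4.42e-04) and 0.95 ± 0.123 (adjusted p = 9.51e-04). Among steroid receptors and binding partners, 17 of 18 were measured; 4 rose (23.5%), 3 fell (17.6%) and 10 missed the threshold, and the median difference was 0.02. Paqr8, a membrane progesterone receptor, rose by 1.44 ± 0.138 (adjusted p = 2.15e-04) and on all 4 of its probe sets, and Esr1, estrogen receptor alpha, by 1.10 ± 0.102 (adjusted p = 1.87e-04). On its fainter probe sets Esr1 rose by 0.52 (1435663_at, adjusted p = 0.0182) and did not pass on 1421244_at, which was low (0.15, adjusted p = 0.329), and the mean of its probe sets rose by 0.59. The glucocorticoid receptor gene Nr3c1 fell by 0.58 ± 0.065 (adjusted p = 4.58e-04) and on 4 of its 6 probe sets in all. Its co-chaperone gene Fkbp4 fell by 0.75 ± 0.061 (adjusted p = 9.44e-05), with -0.05 (adjusted p = 0.741) and -0.13 (adjusted p = 0.508) on its other probe sets.

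**Figure D5:**
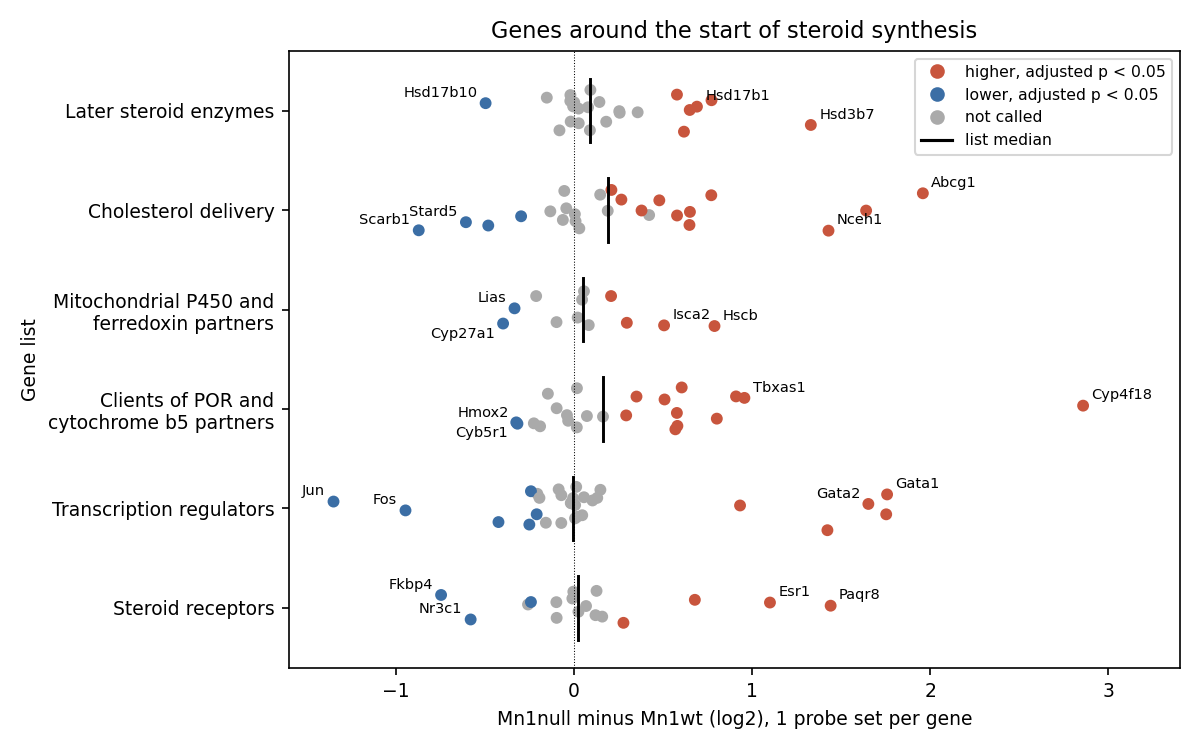
Difference between groups (Mn1null minus Mn1wt, log2, horizontal axis) of each measured gene of 6 lists (vertical axis, points spread to avoid overlap), 1 probe set per gene; red rose and blue fell at a limma adjusted p of 0.05, grey did not pass, and the black bar is the list median. Medians lie between -0.01 and 0.19, and the widest single difference is that of Cyp4f18 at 2.86.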

How the data were processed

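RNA of 6 samples was hybridised to one-colour Affymetrix arrays. The authors deposited log2 values, 1 for each probe set. Per the submitters' processing notes they used RMA, which corrects background, equalises the distributions of arrays and compresses faint signals; no source used here gives its version or any filter.

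Of 45101 probe sets, 64 controls were left out. The platform annotation named 1 gene for 34945 probe sets, several for 932 and listed none for 9160. Groups were compared by limma 3.58.1 (R 4.3.3; lmFit, eBayes, 2-sided, no block, no filter), adjusted by Benjamini-Hochberg over the 45037 probe sets. The steps were tested on simulated data. The arrays gave no sign of pairing by replicate number. Deviations of same-numbered arrays correlated at -0.04, 0.08 and 0.02, and those of differently numbered arrays at -0.15 to 0.13. With 3 arrays per group this cannot exclude a weak pairing. The genes and lists were chosen with earlier results of these data known. Named genes are all probe sets of the 8 genes, Mn1, per list up to 2 per direction with the smallest p, and the 5 closest to Cyp11a1. Genes beyond these (markers, Akr1c18, Sult2b1, H6pd, Hsd11b1, Cyp17a1, Cyp21a1, Cyp11b1, Cyp11b2, Hsd3b2, Hsd3b3, Stard4, Dbi, Vdac1, Vdac2, Atad3a, Gata4, Gata6, Crem, Zfpm1 and Cebpa) were chosen after their values were seen. Upstream sequences are RefSeq's. The number of arrays limits precision.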

Additional observations from a re-analysis of the deposited data

How the results depend on the processing

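The difference of Cyp11a1 on its brightest probe set stayed between 4.60 and 4.74 when any 1 array was left out, and was 1.89 as the mean of its 3 probe sets. That of Tspo went from 0.38 to 0.43 with quantile normalization and 0.28 as the mean of its probe sets. With any 1 array left out, the difference of Cyp11a1 on 1457604_x_at ran from 0.09 to 0.23, that of Star on 1418728_at from -0.22 to -0.05 and that of Hsd3b1 from 0.10 to 0.26. Of the 12 probe sets, Star on 1449201_at was the 1 that changed sign there. Of the pathway counts, the number of regulators that fell went from 6 to 3 at a threshold of 0.01. The number of mitochondrial P450 and ferredoxin partners that fell went from 2 to 1 at that threshold and was 1 to 2 with single arrays left out. With identifiers ending in plain _at only, the number of microsomal P450 enzymes and partners that fell went from 2 to 0, because Hmox2 and Cyb5r1 have no such probe set and are not measured there, which says nothing about their calls. Fkbp4 is then read by another probe set, which did not pass (-0.05, limma adjusted p = 0.741). With the replicate block, limma called 11196 probe sets in place of 12528, and it kept the calls of the 23 genes named by rule from the pathway lists; it was not computed for single genes outside these. Counts went from 6 to 4 for regulators that fell, from 11 to 10 for cholesterol delivery genes that rose and from 4 to 3 for mitochondrial partners that rose. No paired design was evident from the arrays. The median Mn1null minus Mn1wt difference over all probe sets was -3.00e-04. It was -0.010 after median centring and -0.007 after quantile normalization. Signals near the low level of 4.07 limit what can be said of Hsd3b1, Star on 1418728_at and Cyp11a1 on 1457604_x_at.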
